A study of Mus musculus with 6 samples.

Results

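The cytosolic ribosomal protein genes were described in mouse bone marrow pre-B cells with and without deletion of Ppp2r1a, the gene of a scaffold subunit of protein phosphatase 2A (PP2A). Members were all genes whose array probe carried a single annotated symbol that starts with Rpl or Rps and a digit, with Rplp0, Rplp1, Rplp2 and Rpsa added and the S6 kinases and pseudogenes left out. This gave 62 genes of 19733 tested. Of these, 54 are core proteins of the large (60S) or small (40S) subunit, and 8 are other genes that the symbols take in: 6 paralogues, the retrogene Rps23rg1 and Rps19bp1, which encodes a protein that binds Rps19. Where a gene had several probes, the one with the highest mean over the 6 arrays was used.

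The cells of both groups came from Ppp2r1afl/fl mice and carried BCR-ABL1, the fusion kinase of Philadelphia chromosome-positive leukaemia, introduced by transduction. In 3 arrays the cells had also received Cre, the recombinase that deletes the floxed gene, and in 3 an empty vector (EV). No arrays of cells that received Cre without floxed alleles were analysed here, so an effect of Cre itself and of the deletion cannot be told apart. The titles call the arrays of a group repeats without naming their cultures or mice. The p-values below therefore rest on an array-to-array spread that could be purely technical. The time between transduction and harvest is not stated in the labels.

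Ribosomal proteins assemble with ribosomal RNA in the nucleolus into a small subunit, which decodes the messenger RNA, and a large subunit, which forms the peptide bond. Their mRNAs are among the most abundant in dividing cells. In vertebrates these mRNAs start with a C and a run of pyrimidines, the 5′ terminal oligopyrimidine (TOP) motif, through which the kinase mTOR and the binding protein LARP1 set how well they are translated. This control acts mainly on translation, which arrays of total RNA do not measure. PP2A removes phosphates from many substrates of growth signalling, the kinases AKT and S6 kinase among them.

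Start regions were taken from RefSeq promoters of build GRCm38.p6 to show which members have a C and a run of pyrimidines near their annotated start. Each line below runs from 15 bases before to 15 bases from the start, on the strand of the gene. Capitals mark the run of pyrimidines from the first C within 5 bases of the start that is followed by at least 4 more. On the probes used, the first 3 genes were among the lowest in Cre cells relative to EV cells, the next 3 hardly differed, and Rpl24, also among the lowest, has no such run in its window.
Rpl14, chr9:120571502-120571531, plus strand: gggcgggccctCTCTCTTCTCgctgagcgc
Rps15a, chr7:118116133-118116162, minus strand: ctctctttctgccatCTTCCCTCgccggtg
Rps18, chr17:33955651-33955680, minus strand: tacgtcacttccgCTCTCTCTTCCacagga
Rpl38, chr11:114668565-114668594, plus strand: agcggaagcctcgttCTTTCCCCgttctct
Rps6, chr4:86857353-86857382, minus strand: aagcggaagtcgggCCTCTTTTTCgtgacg
Rps2, chr17:24720048-24720077, plus strand: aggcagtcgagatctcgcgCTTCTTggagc
Rpl24, chr16:55966260-55966289, plus strand: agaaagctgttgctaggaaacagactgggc
The table matched 43 of the 54 core members. A C followed by at least 4 pyrimidines (C or T, gene strand) lay exactly on the annotated start in 9 of them (20.9%), against 3.01% of all 27025 genes in the table. Within 5 bases of the start it was found in 16 (37.2%), against 21.2% of all genes. A window without a run says only that these letters are not there.

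Before the members, the deleted gene was checked. Ppp2r1a had log2 levels of 7.12, 6.98 and 6.92 in Cre arrays, against 9.06, 9.05 and 9.06 in EV arrays. It fell by 2.05 on the log2 scale (SE 0.071, limma adjusted p = 1.2e-05), and the groups did not overlap. Over all genes, pairs of arrays correlated at 0.9955 to 0.9963 within a group and at 0.9913 to 0.9923 between groups. Of 9 measured B lineage markers, at mean levels of 7.77 to 12.04, the recombinase gene Rag1 was the only one that passed the test, and it fell by 2.09. The markers of T cells (5), myeloid cells (7), erythroid cells (2) and stroma (5) lay between 3.18 and 5.75 in mean level, and none of them passed the test. In cultures measured in bulk, fewer cells of a kind and less RNA per cell cannot be told apart.

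As deposited, most core ribosomal protein genes had a small negative difference, and the test called none of them. Cre minus EV was below 0 in 51 of the 54 core members, with a median of −0.055 on the log2 scale, or −3.76% on the linear scale. The middle 50% of the core members lay between −0.097 and −0.037, and the whole range ran from −0.22 (Rpl14) to 0.024 (Rpl41). Over all 62 members, 54 were below 0, 7 above, and Rpl10l was at 0, with a median of −0.054. Over all 19733 genes, 50.9% were below 0 and the median was −0.0027. With each array centred on the median or the mean of all genes, 49 of the 54 core members were below 0. With the brightest 10% of genes other than members it was 52. After quantile normalization of the tested genes it was 40 (median −0.024). Centring on the members puts their median near 0 by construction, and 31 (median −0.0085) were then below 0.

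No member passed limma's test at an adjusted p below 0.05, in a comparison that called 3.49% of all genes (1.35% higher and 2.14% lower in Cre cells). The smallest adjusted p was 0.0768 among members (Rpl3l) and 0.162 among core members (Rpl14). In simulated data with spreads drawn from all genes, the fit recovered 0% of changes of 0.1 and 1% of changes of 0.2. A missing call therefore says little about differences as small as those of the core members. At an unadjusted p below 0.05, 3 members were lower (Rpl14, Rpl29 and Rpl24), against 9.02% of all genes, and 1 was higher (Rpl3l), against 7.1% of all genes. With eBayes' trend and robust settings, which fit the spread to the level, 10 members were called. Rpl10a, Rpl13, Rpl14, Rpl24, Rpl29, Rpl36a, Rpl5, Rps18 and Rps3 were the 9 called lower, against 4.65% of all genes, and Rpl3l the 1 called higher, against 3.24% of all genes. Ordinary t statistics without moderation called 1 lower, Rpl36a, against 0.426% of all genes. The count at an unadjusted p below 0.05 also depended on the moderation. With ordinary t statistics 22 members were lower, against 8.42% of all genes, and 1 was higher. With trend and robust settings 24 members were lower, against 10.2% of all genes, and 1 was higher. With the dimmest 25% of genes left out, Rpl3l was called higher, against 2.59% of the genes then tested. With the dimmest 50% left out, Rpl14 and Rpl29 were called lower, against 7.68%.

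All 3 Cre arrays lay below all 3 EV arrays in 29 of 62 members (46.8%), against 12.2% of all genes. All Cre arrays lay above all EV arrays in 2 members, Rpl3l and Rpl7l1, against 10.3% of all genes. Among the 54 core members the counts were 28 below and 0 above. Such shares depend on level: of the 28 other genes at 12 or above, 21.4% lay below and 28.6% above. The share below was 20.2% in other genes at 8 to 9 and 24.5% at 10 to 11. The core members share 6 arrays and 1 normalization, so they are not 54 separate observations of the deletion.

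Each Cre array had a lower median core level than each EV array. The median core level was 12.41, 12.41 and 12.40 in Cre arrays and 12.46, 12.49 and 12.48 in EV arrays. Set against each gene's own mean over the 6 arrays, the median core member stood at −0.024, −0.024 and −0.029 in Cre arrays and at 0.017, 0.035 and 0.032 in EV arrays. In Cre arrays 1 to 3, 44, 41 and 48 of the 54 members were below their own mean. In EV arrays 1 to 3, 10, 11 and 3 were.

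**Figure D1:**
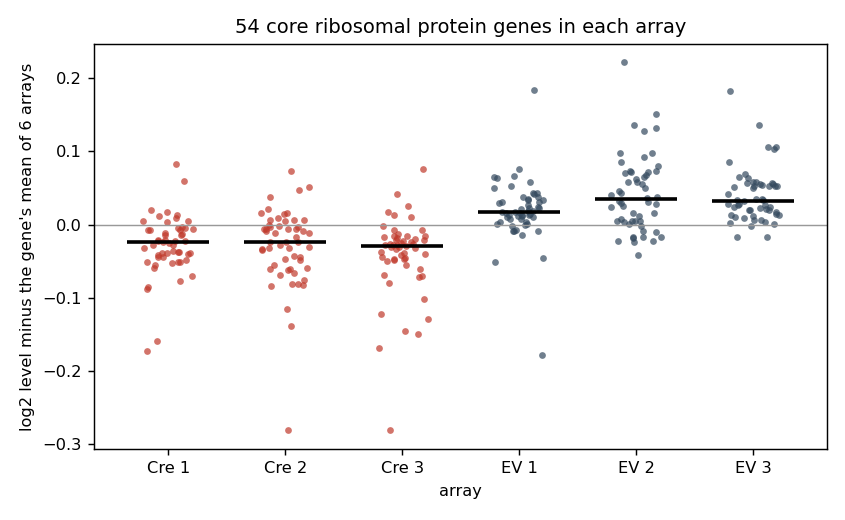
Log2 level minus the gene's mean over 6 arrays (vertical axis) for the 54 core ribosomal protein genes in each array (horizontal axis, Cre in red, EV in grey); each point is a gene and each black bar the array's median. The 3 Cre medians lie at −0.029 to −0.024 and the 3 EV medians at 0.017 to 0.035.

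The members had a small spread, which bears on how the test reads them. The pooled SD within groups had a median of 0.027 over core members, against 0.11 over all genes. The standard error of the difference from that spread alone had a median of 0.022 in core members. The moderated fit, which borrows the spread of all genes, gave a median of 0.06. The difference was larger than the gene's own pooled SD in 44 of the 54 core members and in 8514 of all 19733 genes.

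Of the 33 core proteins of the large subunit, 31 were below 0, with a median of −0.071. In 20 all Cre arrays lay below all EV arrays, against 12.2% of all genes and 21.4% of other genes at 12 or above. Rpl14 was lowest of all members. It had levels of 10.37, 10.41 and 10.53 in Cre arrays, against 10.61, 10.67 and 10.68 in EV arrays. The difference was −0.22 (SE 0.069, adjusted p = 0.162), with every Cre array below every EV array.

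Rpl29 had levels of 11.14, 11.13 and 11.06 in Cre arrays, against 11.25, 11.36 and 11.32 in EV arrays, a difference of −0.20 (SE 0.064, adjusted p = 0.167). Rpl24, the gene mutated in Belly spot and tail mice, had 12.20, 12.19 and 12.10 in Cre arrays, against 12.31, 12.35 and 12.33 in EV arrays. Its difference was −0.17 (SE 0.062, adjusted p = 0.242). In both genes the gap between the groups was wider than the range within either group. The value of Rpl29 rests on 1 probe: 23 probes annotated to Rpl29 and other symbols had −0.19 to −0.094, and the brightest, at 12.22, had −0.12.

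Rpl5 binds 5S ribosomal RNA and, with Rpl11, can bind the p53 inhibitor Mdm2. It had 11.85, 11.80 and 11.83 in Cre arrays, against 11.94, 11.96 and 11.94 in EV arrays. The difference was −0.12 (SE 0.059, adjusted p = 0.383), with no overlap. Rpl22, a protein that developing lymphocytes need, had 9.13, 9.03 and 8.99 in Cre arrays, against 9.15, 9.20 and 9.16 in EV arrays. That difference was −0.12 (SE 0.066, adjusted p = 0.434), and Cre array 1 lay just under the lowest EV array.

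Rpl10a had 12.54, 12.54 and 12.56 in Cre arrays, against 12.61, 12.67 and 12.65 in EV arrays, and Rpl36a had 12.10, 12.09 and 12.09 in Cre arrays, against 12.17, 12.20 and 12.19 in EV arrays. Their differences were −0.096 (SE 0.059) and −0.092 (SE 0.058), and neither overlapped. Rpl36a had an SD of 0.0044 in Cre arrays and 0.013 in EV arrays. Rpl38, which in mice affects the translation of Hox mRNAs, differed little: 12.50, 12.50 and 12.47 in Cre arrays, against 12.53, 12.49 and 12.52 in EV arrays, a difference of −0.024 with overlap.

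At the top of the core list was Rpl41, the smallest ribosomal protein. It had 12.96, 12.95 and 12.97 in Cre arrays and 12.90, 12.93 and 12.97 in EV arrays, a difference of 0.024 (SE 0.06, adjusted p = 0.899) with overlap. Its 3 probes held the same values and count as 1 measurement.

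The P stalk, the arm of the large subunit that recruits elongation factors, is built from Rplp0, Rplp1 and Rplp2. Rplp0 had 12.72, 12.74 and 12.73 in Cre arrays, against 12.79, 12.75 and 12.81 in EV arrays. Rplp1 had 12.86, 12.93 and 12.92 in Cre arrays, against 12.96, 13.00 and 13.01 in EV arrays. Both were lower without overlap, with differences of −0.053 and −0.086, and neither passed the test (adjusted p = 0.741 and 0.568). Rplp2 had 8.56, 8.53 and 8.59 in Cre arrays and 8.54, 8.55 and 8.53 in EV arrays, a difference of 0.021 with overlap. Its value rests on 1 probe, dim beside those of Rplp0 and Rplp1.

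Of the 21 core proteins of the small subunit, 20 were below 0, with a median of −0.046. In 8 all Cre arrays lay below all EV arrays, against 12.2% of all genes and 21.4% of other genes at 12 or above. Whether the subunits differed from each other was not tested. The lowest was Rps3, a protein at the mRNA entry channel, with 11.84, 11.81 and 11.91 in Cre arrays, against 11.98, 11.97 and 12.03 in EV arrays. The difference was −0.14 (SE 0.064, adjusted p = 0.346), with no overlap.

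Rps15a had 8.87, 8.88 and 8.87 in Cre arrays, against 8.99, 8.92 and 9.13 in EV arrays, a difference of −0.14 (SE 0.072, adjusted p = 0.42). Rps18 had 12.41, 12.40 and 12.44 in Cre arrays, against 12.48, 12.55 and 12.53 in EV arrays, a difference of −0.10 (SE 0.06, adjusted p = 0.468). Every Cre array was below every EV array in both genes, and the EV arrays of Rps15a were more scattered than its Cre arrays. The value of Rps15a rests on 1 dim probe: 2 brighter probes annotated to Rps15a and its pseudogenes, at 12.79 and 12.88, differed by 0.001 and 0.0 with overlap.

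Loss of 1 copy of Rps14 is known from human 5q- syndrome, and mutations of Rps19 from human Diamond-Blackfan anaemia. Rps14 had 12.71, 12.76 and 12.65 in Cre arrays, against 12.78, 12.81 and 12.81 in EV arrays, a difference of −0.093 (SE 0.062, adjusted p = 0.541) with no overlap. Rps19 had 11.32, 11.28 and 11.32 in Cre arrays, against 11.27, 11.42 and 11.33 in EV arrays. Its difference was −0.036 with overlap, since EV array 1 was the lowest of all 6. That value rests on 1 probe: 3 probes annotated to Rps19 and a pseudogene, the brightest at 11.41, had −0.10 to −0.099. In these all Cre arrays lay below all EV arrays, and none was called. Rps19bp1, a binding protein of Rps19, had 8.49, 8.54 and 8.49 in Cre arrays, against 8.61, 8.55 and 8.72 in EV arrays. The difference was −0.12 (SE 0.07, adjusted p = 0.463), and the groups came within 0.006 of each other.

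Rps6, the S6 protein whose phosphorylation is a common readout of mTOR signalling, had 12.50, 12.51 and 12.45 in Cre arrays, against 12.51, 12.47 and 12.52 in EV arrays. The difference was −0.018 with overlap. The arrays measure its mRNA and say nothing of its phosphorylation. Rpsa, the protein also known as the laminin receptor, had 12.73, 12.72 and 12.73 in Cre arrays, against 12.78, 12.73 and 12.80 in EV arrays, a difference of −0.04 with overlap at EV array 2.

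Rps25, which several viral mRNAs need for initiation, had 12.30, 12.31 and 12.31 in Cre arrays and 12.31, 12.29 and 12.33 in EV arrays, a difference of −0.005. Rps2 had 12.39, 12.36 and 12.40 in Cre arrays and 12.41, 12.36 and 12.38 in EV arrays, a difference of 0.0017. Rps29, the brightest member, had 13.19, 13.20 and 13.16 in Cre arrays and 13.18, 13.19 and 13.18 in EV arrays, a difference of −0.003. In these 3 genes the groups overlapped throughout. Rps28, the next brightest, had 13.00, 13.01 and 13.00 in Cre arrays, against 13.00, 13.04 and 13.03 in EV arrays, a difference of −0.022 with overlap at EV array 1.

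**Figure D2:**
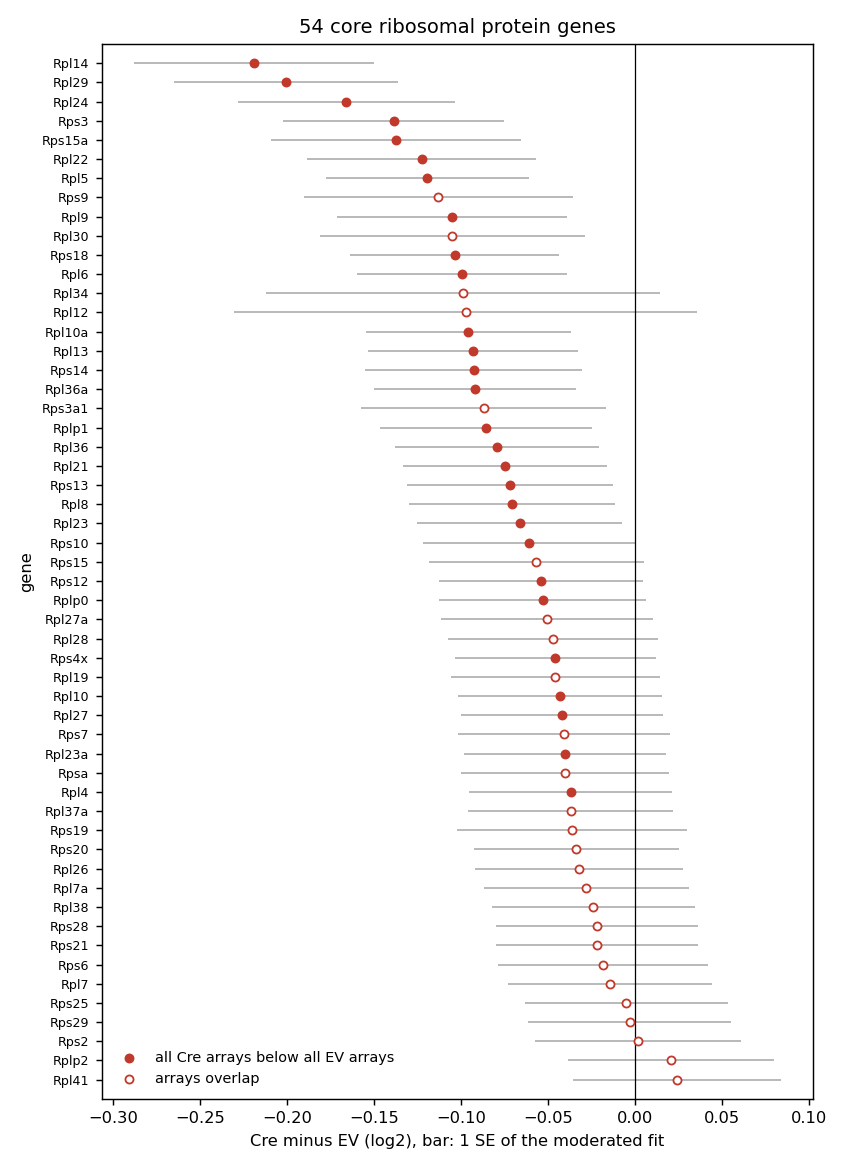
Cre minus EV on the log2 scale (horizontal axis, bars are 1 SE of the moderated fit) for the 54 core ribosomal protein genes (vertical axis). Filled points mark the 28 genes in which all 3 Cre arrays lay below all 3 EV arrays, and open points the 26 that overlapped; 51 of the 54 lie below 0.

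The 8 members outside the core had differences of both signs. Rpl3l, the striated muscle form of Rpl3, had 4.75, 5.40 and 5.44 in Cre arrays, against 4.43, 4.55 and 4.47 in EV arrays. The difference was 0.72 (SE 0.17, adjusted p = 0.0768), the largest in size of any member, and all Cre arrays were above all EV arrays. Cre array 1 lay well below the other 2, and without it the difference was 0.94 (adjusted p = 0.00268), in a fit that called 0.745% of all genes higher. Without each of the other arrays in turn the adjusted p ran up to 0.221. Its mean level was above that of 43.1% of all genes, so the probe was dim beside those of the core members.

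Rpl7l1, an Rpl7-like protein, had 8.11, 8.19 and 8.11 in Cre arrays, against 8.05, 8.09 and 8.10 in EV arrays, a difference of 0.057 (SE 0.062, adjusted p = 0.732). The partner Rpl7 had 12.30, 12.28 and 12.25 in Cre arrays, against 12.29, 12.29 and 12.29 in EV arrays, a difference of −0.014. Rpl7l1 did not overlap and Rpl7 did, and the difference between the 2 genes was not tested.

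Rpl10l, a testis form of Rpl10, had 3.996, 2.945 and 3.851 in Cre arrays and 3.720, 3.552 and 3.520 in EV arrays, with equal means. Rpl10 itself had 12.52, 12.58 and 12.55 in Cre arrays, against 12.59, 12.60 and 12.59 in EV arrays, a difference of −0.043 without overlap. Rpl39l, another form found mainly in testis, was the dimmest member, with 2.86, 3.16 and 2.60 in Cre arrays and 3.06, 2.85 and 2.64 in EV arrays. Its groups overlapped throughout, at a difference of 0.025.

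Rpl32l had 6.15, 6.12 and 6.19 in Cre arrays and 6.14, 5.98 and 6.23 in EV arrays, a difference of 0.033 with overlap. Rps27l, a p53-induced relative of Rps27, had 10.15, 10.18 and 10.15 in Cre arrays, against 10.10, 10.38 and 10.24 in EV arrays, a difference of −0.083 (SE 0.082, adjusted p = 0.701) with overlap. Rps4x, the partner of Rps4l, had 12.35, 12.34 and 12.35 in Cre arrays, against 12.41, 12.38 and 12.40 in EV arrays, a difference of −0.046 without overlap. Of the 8 genes outside the core, 4 were above 0 and 3 below. Some of these values were small beside their SE, as in Rpl39l (SE 0.16) and Rpl32l (SE 0.079). Whether their signs differ from those of the core members was not tested.

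Levels of different probes show brightness, not amounts of RNA, and by brightness the core members lay at the top of the scale. Of the 54, 40 had a mean level of 12 or above, with a median difference of −0.047, and 14 were dimmer, with a median of −0.10. Several of the 14 had brighter probes annotated to other symbols too, which were kept out. The brightest of these lay nearer to 0 than the probe used in Rpl12, Rpl29, Rpl30, Rpl34, Rps15a and Rps3a1. In Rpl12 it had 0.001 at 12.71, against −0.097 at 6.63. In Rpl26 and Rps19 it lay further from 0, at −0.17 and −0.10, against −0.032 and −0.036. In these data other genes of the same brightness were not lower on balance: of 28 other genes at 12 or above, 14 were below 0 and 14 above, with a median of −0.003. All Cre arrays lay below all EV arrays in 6 of those 28 and above them in 8. The 28 take in Fau (−0.11), itself a ribosomal protein gene under another symbol. They also take in transcripts listed for a TOP start: Naca (−0.16), Pabpc1 (−0.056), Tpt1 (−0.0097) and Eef1a1 (0.0033). At a level of 11 to 12, 7 of 7 core members were below 0, with a median of −0.087, and 51 of 112 other genes were, with a median of 0.015.

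**Figure D3:**
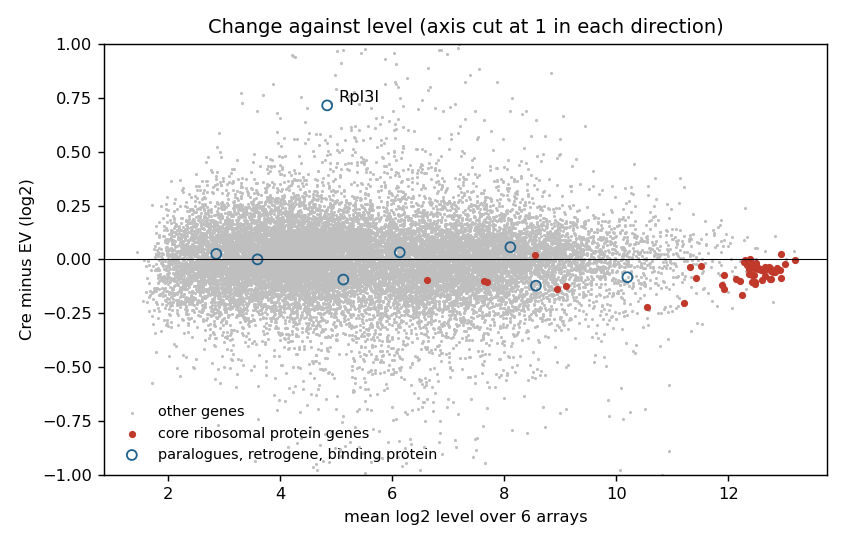
Cre minus EV on the log2 scale (vertical axis) against the mean log2 level over 6 arrays (horizontal axis) for all genes tested; grey points are other genes, red points the 54 core members and open blue circles the other 8 members. The red points sit mostly at 12 or above and just under 0, and Rpl3l stands at 0.72; 129 genes lie outside the axis.

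Several members were read by more than 1 probe, which gave a second look at the same gene in the same arrays. Most ribosomal protein genes have processed pseudogenes of near-identical sequence, so which copy a probe reads is uncertain, and probes of a gene are not independent. Of 206 single-symbol probes of core members, which held 195 distinct sets of values, 201 were below 0 and 0 were called. All Cre arrays lay below all EV arrays in 144, against 12.2% of all genes and 21.4% of other genes at 12 or above. In 38 genes with several probes, the dimmest probe had the more negative difference in 30, the less negative in 7 and the same in 1. The medians were −0.081 for the dimmest and −0.052 for the brightest probe. Where the 2 probes were at least 0.5 apart in level, the dimmest was the more negative in 15 of 16 genes, with medians of −0.14 and −0.071.

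Among the genes with a wide gap, Rpsa had a difference of −0.29 on a probe at 11.09 and of −0.04 on the probe used, at 12.75. Rplp0 had −0.25 at 11.74 and −0.053 at 12.75, Rpl7a −0.23 at 10.17 and −0.028 at 12.33, and Rpl5 −0.26 at 10.70 and −0.12 at 11.89. None of these probes passed the test. Rpl21 was the exception among the wide gaps, with −0.048 at 11.71 and −0.075 at 12.46. Rps2, at 0.0017 on its brightest probe, had −0.08 at 10.41 with overlap.

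**Figure D4:**
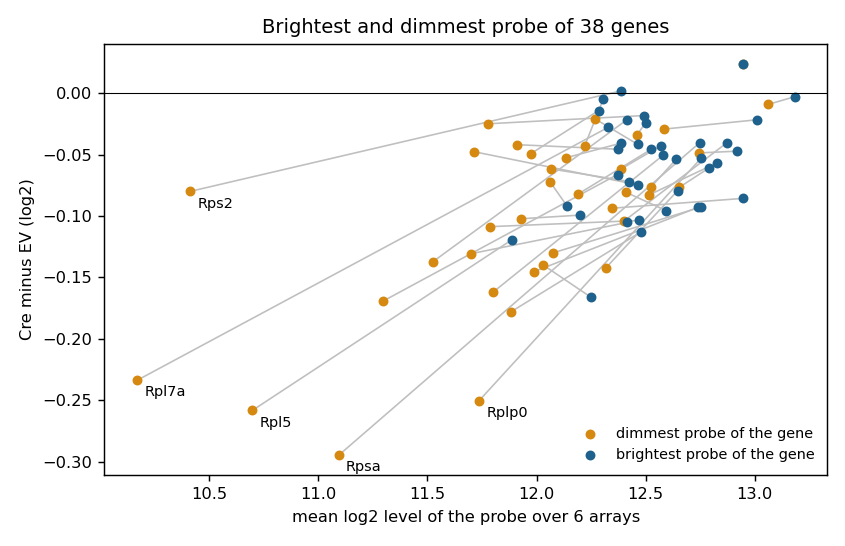
Cre minus EV on the log2 scale (vertical axis) against the probe's mean log2 level over 6 arrays (horizontal axis) for the dimmest (orange) and brightest (blue) single-symbol probe of 38 members, joined by a line for each gene. Rpsa, Rplp0, Rpl5 and Rpl7a show the lowest dim probes, at −0.29 to −0.23.

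Another 226 probes carried a ribosomal protein symbol beside other symbols and were kept out of the main fit. With these probes entered as extra features, 0 of them were called. They were the only probes of 20 symbols: Rpl3, Rpl11, Rpl13a, Rpl15, Rpl17, Rpl22l1, Rpl31, Rpl32, Rpl35, Rpl35a, Rpl36al, Rpl37, Rpl37rt, Rpl39, Rps16, Rps23, Rps24, Rps26, Rps27 and Rps27rt. No value is given to these genes by name. Their brightest shared probes were 18 distinct probes, since some symbols share one. Of these 18, 17 were below 0, with a median of −0.06. In 12 all Cre arrays lay below all EV arrays, against 12.2% of all genes and 21.4% of other genes at 12 or above.

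RMA sets the single-probe intensities of the arrays to one distribution before it sums them into probe-set levels, and ribosomal protein probes made up much of the top of that scale. Of the 837 probes at a mean level of 11 or above, 412 (49.2%) carried a ribosomal protein symbol, alone or shared. At 12 or above it was 349 of 504 (69.2%). The deposited levels themselves still differed a little between arrays, with a highest level among the genes tested of 13.16 to 13.22. What this normalization did to the members' differences was not tested.

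Moving the zero point of the arrays changed the size of the shared difference and, under some choices, the sign of single genes. Centring each array on the median of all genes gave a member median of −0.048, and on the mean of all genes −0.043. In both, Rps25 and Rps29 came to lie above 0, and 52 of 62 members stayed below. Centring on the brightest 10% of genes other than members gave −0.056, with 56 below 0. Cyclic loess, which evens out differences that depend on level, gave −0.052.

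2 settings took most of the difference away. Centring on the members' own median leaves only differences among them: 34 were then below 0 and 28 above, with a median of −0.0067, 20 members turned from below to above 0, and the median of all genes became 0.044. Quantile normalization over the tested genes alone gave −0.02, with 44 below 0, and 10 members turned to above 0: Rpl27, Rpl37a, Rpl7, Rpl7a, Rps10, Rps20, Rps21, Rps25, Rps6 and Rpsa. In that setting 1 probe stands for each gene, and the members made up 58.8% of the genes at 12 or above. Among all 504 probes at that level, 349 carried a ribosomal protein symbol, a larger share. Whether this bears on the result was not tested. By contrast, centring on the 28 other genes at 12 or above, an alternative added after the data were seen, gave −0.068 with 56 below 0. Under every one of these centrings and normalizations the test called 0 members.

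**Figure D5:**
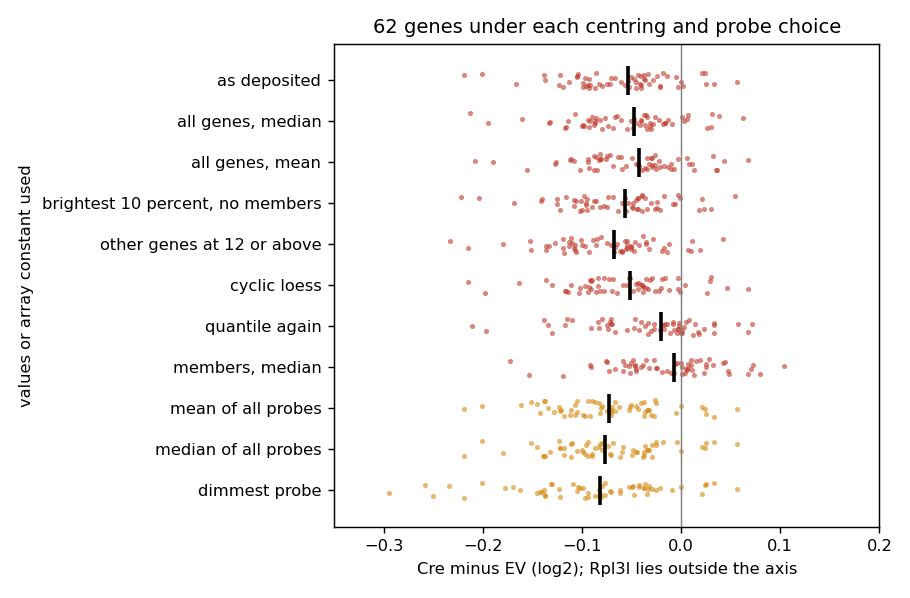
Cre minus EV on the log2 scale (horizontal axis) for the members under each centring, normalization or probe choice (vertical axis); each point is a gene and each black bar the median. The median is −0.054 as deposited, −0.0067 after centring on the members themselves and −0.081 with the dimmest probe of each gene; Rpl3l lies outside the axis.

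Other genes of translation were read from the same fit, in which 50.9% of all genes were below 0 and 3.49% were called. Fau, the only measured ribosomal protein with another symbol, had 12.07, 12.12 and 12.18 in Cre arrays, against 12.20, 12.26 and 12.22 in EV arrays, a difference of −0.11 with no overlap. Of 7 genes listed with the elongation factors, 5 were below 0, with a median of −0.16, and 0 were called. The list takes in Eef2k, a kinase of Eef2, and Eef1e1, which are not elongation factors themselves, at −0.21 and −0.16. Eef2, the factor that moves the ribosome along the mRNA, had 11.62, 11.55 and 11.66 in Cre arrays, against 11.84, 11.83 and 11.75 in EV arrays, a difference of −0.19 (SE 0.065, adjusted p = 0.187). Eef1a1, which brings the aminoacyl-tRNA, did not follow it, at 0.0033 with overlap.

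Of 35 genes listed with the initiation factors, 25 were below 0, with a median of −0.083. The list takes in Eif4ebp1 and Eif4ebp2, which encode binding proteins of Eif4e and not initiation factors. The test called 1 of the 35, Eif4b, a helper of the helicase Eif4a. Eif4b had 9.57, 9.59 and 9.65 in Cre arrays, against 9.93, 9.98 and 9.94 in EV arrays. It fell by 0.35 on the log2 scale (SE 0.061, adjusted p = 0.0248), with no overlap. The call was lost when any 1 of the 6 arrays was left out (adjusted p = 0.0592 to 0.0976) and after centring on the members (adjusted p = 0.0537). Of 16 other transcripts listed for a TOP start, 13 were below 0, with a median of −0.13, and 1 was called, Eif4b. They are not a separate group: Fau, Eef1a1, Eef1b2, Eef1d, Eef2, Eif3e, Eif3f, Eif3h and Eif4b were already counted above.

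Of 16 chaperones and importers of ribosomal proteins, 12 were below 0, with a median of −0.072, and 0 were called. Of 15 genes of idle ribosome binding and ribosome quality control, 8 were below 0, with a median of −0.0063, and 0 were called. Of 77 mitochondrial ribosomal protein genes, 52 were below 0, with a median of −0.057, and 1 was called. That gene was Mrpl24, which had 7.71, 7.69 and 7.64 in Cre arrays, against 8.24, 8.41 and 8.33 in EV arrays, and fell by 0.64 (SE 0.069, adjusted p = 0.00272). All Cre arrays lay below all EV arrays in 20 of the 77 (26.0%), against 12.2% of all genes. The share depends on level: at 8 to 9, where the median level of the 77 lay (8.345), it was 20.2% of genes other than members.

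By annotated start, core members with and without a run of pyrimidines nearby had medians close to each other. The 16 core members with a run within 5 bases had a median of −0.049, with 14 below 0, and the 27 without one had a median of −0.054, with 26 below 0. Rpl14, the lowest, and Rplp2, above 0, both have a run within 5 bases of the annotated start. So did 21.2% of all genes, and the starts used in these cells were not measured. The split therefore does not separate transcripts with a TOP motif from those without.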

How the data were processed

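Biotin-labelled cRNA of 6 samples, 3 Cre and 3 EV, was read on Affymetrix arrays, per the labels' protocols. The deposited values are on the log2 scale, with 1 value for each probe set and array. RMA made them, per the submitters' processing notes, in a version that the sources used here do not name. RMA includes quantile normalization, so each difference is relative to the other genes. For arrays, the number of samples limits the precision.

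Of 25006 probes, 21467 had 1 symbol in the platform annotation, 1521 several and 2018 none; 21386 of the first matched a RefSeq gene of GRCm38.p6. The probe with the highest mean was kept for each of 19733 genes. Groups came from the titles. Genes were compared with limma 3.58.1 (lmFit, eBayes) in R 4.3.3, and p-values were adjusted by Benjamini-Hochberg over all genes, with a call at an adjusted p below 0.05. Tables and plots used Python 3.11.15, pandas 2.3.3 and matplotlib 3.10.9. The fit was tested on simulated data. Members and lists were chosen with earlier results of these data known. Values in every array were given for the 8 most positive and 8 most negative members, the 10 with the smallest p, the paralogues with their single-symbol partners, the 3 brightest and 3 dimmest, and a set of genes with known roles (among them Rpl5, Rps14, Rps19, Rps6, Rps25, Rpl38, Rpsa and the P stalk). Alternatives were recentring, normalization, filters on dim genes, moderation, probe choice, a block and leaving out each array. The correlation of same-numbered arrays' deviations from their group means was 0.009, −0.012 and 0.03, so the numbers were not treated as pairs.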

Additional observations from a re-analysis of the deposited data

How the results depend on the processing

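The number of members called was 0 of 62 as reported. It was 1 without the dimmest 25% of genes (Rpl3l), 2 without the dimmest 50% (Rpl14 and Rpl29), 10 with trend and robust moderation, 1 with ordinary t statistics (Rpl36a) and 0 to 1 when each array was left out in turn (Rpl3l without Cre replicate 1). All genes called numbered 689 as reported, 940 and 1295 under the 2 filters, 1558 with trend and robust moderation, 148 with ordinary t statistics and 362 to 424 with 1 array left out. The median difference of the members, −0.054 as reported, was −0.0067 after centring on the members, −0.0199 after quantile normalization of the tested genes, −0.073 with the mean and −0.077 with the median of all probes of a gene, and −0.081 with the dimmest probe, an alternative added after the data were seen. Leaving out each array gave −0.062 to −0.047, with 53 to 56 members below 0. With the repeat number as a replicate block, 0 members and 425 genes in all were called, and Eif4b lost its call (adjusted p = 0.0877); the same numbers deviated together at no more than 0.03, so this pairs nothing. Of 1358 values of single members under alternatives, 15 passed the threshold. Of those not called, 1220 moved by no more than the gene's own pooled SD within groups, and 123 moved further. Ppp2r1a stayed called in every alternative, at −2.11 to −2.01. What caused these movements was not tested, except that fewer genes tested or other spread estimates are what the filters and moderation change.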

Other observations

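The genes that the rule left out were measured too. Of the 6 S6 kinase genes, none was called, and Rps6kb2, which encodes an enzyme that phosphorylates Rps6, had 7.40, 7.31 and 7.34 in Cre arrays, against 7.25, 7.22 and 7.19 in EV arrays, a difference of 0.13 (SE 0.062, limma adjusted p = 0.358) with all Cre arrays above all EV arrays. The other 5 overlapped. The 3 pseudogene rows, Rpl14-ps1, Rps19-ps3 and Rps4l, were below 0 with overlap, at −0.032, −0.096 and −0.16. The pseudogene row of Rpl14 thus lay nearer to 0 than the row of Rpl14 itself (−0.22), and the difference between them was not tested.

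Of the 28 other genes at a level of 12 or above, those with the most negative differences were Gmfg (−0.22) and Mif (−0.20), and those with the most positive were Ly6e (0.24) and Actb (0.11). In each of these 4 the groups did not overlap, and none passed the test.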
